A study of Mus musculus with 6 samples.

Results

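The genes described here are 10 genes of secretion and transport in the choroid plexus, out of 33696 genes in the deposited gene tables. They were chosen by name from what the choroid plexus is known to make and move, with earlier results of these data known. Each matched 1 row of the tables by its symbol. They fall into 3 roles. The secreted proteins are transthyretin (Ttr, ENSMUSG00000061808), the ecto-enzyme autotaxin (Enpp2, ENSMUSG00000022425) and insulin-like growth factor 2 (Igf2, ENSMUSG00000048583). The receptors and coreceptors are klotho (Kl, ENSMUSG00000058488), the prolactin receptor (Prlr, ENSMUSG00000005268) and folate receptor alpha (Folr1, ENSMUSG00000001827). The genes of ion and water transport are Clic6 (ENSMUSG00000022949), Kcne2 (ENSMUSG00000039672), Slc4a5 (ENSMUSG00000068323) and Aqp1 (ENSMUSG00000004655).

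The study made 6 droplet single-cell RNA libraries from mouse brain cells, 2 in each of 3 groups. The TRPM2 Mg KO bilirubin group is a knockout of the cation channel gene Trpm2 given bilirubin, the WT bilirubin group is wild type given bilirubin, and the WT vehicle group is wild type given vehicle. There was no knockout group with vehicle, so an effect of bilirubin within the knockout cannot be tested. The labels do not expand "Mg", and the sources used here do not give the promoter or cells in which the gene was deleted, the brain region, dose, duration, age or sex. Nothing in the labels says that the 2 libraries of a group came from separate animals, so p-values cover only library-to-library spread and may be partly technical.

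The choroid plexus is a folded epithelium in the brain ventricles that makes cerebrospinal fluid. Its cells move sodium, bicarbonate, chloride and water from blood to fluid, carry vitamins such as folate across, and secrete proteins such as transthyretin, which binds thyroid hormone. The epithelium also carries receptors for blood hormones, among them prolactin, and the membrane protein klotho, a coreceptor for fibroblast growth factor 23 that can be shed into the fluid.

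RefSeq promoter windows on build GRCm38.p6 were used for 6 of the 10 genes, with 12 windows of 250 bases before a transcript start. Ttr was left out of this step, and Enpp2, Folr1 and Clic6 matched no window, so the counts below do not cover these genes. Of the 6 genes, the 3 with a single window are shown because their levels are compared below and each has 1 start only. Capitals mark a match to the TATA box letters TATAAA or their reverse complement TTTATA. The windows are Kl at chr5:150952357-150952606, Slc4a5 at chr6:83237125-83237374 and Aqp1 at chr6:55336049-55336298, all on the plus strand.
Kl: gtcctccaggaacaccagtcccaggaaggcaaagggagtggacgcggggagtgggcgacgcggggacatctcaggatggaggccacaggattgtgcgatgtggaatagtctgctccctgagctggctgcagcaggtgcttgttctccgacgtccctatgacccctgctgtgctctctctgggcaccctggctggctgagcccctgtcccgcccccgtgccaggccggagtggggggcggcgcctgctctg
Slc4a5: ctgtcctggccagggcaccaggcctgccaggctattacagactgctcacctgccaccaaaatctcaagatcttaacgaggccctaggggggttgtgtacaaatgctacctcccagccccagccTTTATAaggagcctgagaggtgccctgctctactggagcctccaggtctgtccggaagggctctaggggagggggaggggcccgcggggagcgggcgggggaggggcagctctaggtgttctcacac
Aqp1: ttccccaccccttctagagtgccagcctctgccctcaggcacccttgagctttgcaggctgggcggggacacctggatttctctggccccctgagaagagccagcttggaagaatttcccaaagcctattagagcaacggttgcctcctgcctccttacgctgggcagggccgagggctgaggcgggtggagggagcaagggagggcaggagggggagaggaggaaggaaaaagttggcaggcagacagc

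Of the 12 windows, the TATA letters were found in 1, that of Slc4a5, on the minus strand with the first base 127 bases before the start. The same letters were in 12.4% of 32851 promoter windows of this length. The core letters bound by OTX2, a transcription factor of the choroid plexus, TAATCC or GGATTA on either strand, were in none of the 12 windows and in 6.25% of all windows. Both are matches of letters and not bound sites. In the order of protein-coding genes on chromosome 16, Kcne2 and Clic6 were 5 genes apart, with Smim11, Fam243, Smim34, Kcne1 and Rcan1 between them.

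Cells were kept at 500 or more UMIs (unique molecular identifiers, each counting 1 captured RNA molecule), 300 or more genes and at most 15% mitochondrial UMIs. After removal of 15150 likely doublets, 78994 of 95014 barcodes stayed. The libraries held 24165563 to 63402551 UMIs. Any pair of libraries shared 12 to 144 barcodes, or 0.29% to 0.94% of the smaller one. A cell was called choroid plexus from 20 marker genes that do not include the 10 genes described, such as Otx2, Kcnj13, Sostdc1 and Calml4, so that the level of the 10 genes did not decide membership. This gate took 9949 cells, in which a median of 7 to 12 of the 20 markers was found per library. The cells at the edge of the gate were not sharply set off. The 2790 cells inside, with a marker score 1.5 to 2 times that of the next class, held a median of 11.9% Ttr UMIs, and the 2054 cells outside, at 1.2 to 1.5 times, held 9.54%.

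The libraries differed in how many such cells they gave and in how these cells clustered. Choroid plexus cells numbered 1551 and 381 across the TRPM2 Mg KO bilirubin libraries, 2631 and 2267 across the WT bilirubin libraries, and 187 and 2932 across the WT vehicle libraries. WT vehicle replicate 1 stands apart with 1.14% of its kept cells. In a clustering over all libraries that left the 10 genes out, the gated cells lay mostly in 3 clusters that follow the libraries. Together these clusters held 82.1% and 65.4% of the gated cells across the TRPM2 Mg KO bilirubin libraries. The shares were 81.8% and 92.8% across the WT bilirubin libraries, and 82.9% and 70.5% across the WT vehicle libraries. Cluster 12 held 1137 and 211 of the TRPM2 Mg KO bilirubin cells and 2029 of those of WT bilirubin replicate 1, cluster 11 held 2014 of those of WT bilirubin replicate 2, and cluster 10 held 153 and 1965 of the WT vehicle cells. The medians of UMIs per choroid plexus cell were 7487 and 5980 across the TRPM2 Mg KO bilirubin libraries, 6639 and 3886 across the WT bilirubin libraries, and 2834 and 5182 across the WT vehicle libraries.

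Trpm2 itself was counted at 6.48 and 4.48 CPM in the TRPM2 Mg KO bilirubin libraries, 5.17 and 7.90 CPM in the WT bilirubin libraries, and 11.5 and 6.29 CPM in the WT vehicle libraries, over all kept cells. The knockout overlapped both wild-type groups. The deleted part of the gene was not given in the sources used here, and tags at the 3' end outside it check nothing, so these values neither bear out nor contradict the labels. In choroid plexus cells Trpm2 had 18 and 4 UMIs across the TRPM2 Mg KO bilirubin libraries, 28 and 7 across the WT bilirubin libraries, and 0 and 29 across the WT vehicle libraries.

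In these cells the 10 genes together made up a large part of all RNA counted. They held 18.8% and 14.5% of the UMIs of choroid plexus cells across the TRPM2 Mg KO bilirubin libraries, 19.1% and 22.6% across the WT bilirubin libraries, and 12.8% and 16.2% across the WT vehicle libraries. Nearly all of this was Ttr, at 17.5% and 13.9% across the TRPM2 Mg KO bilirubin libraries, 18.1% and 21.3% across the WT bilirubin libraries, and 12.1% and 15.5% across the WT vehicle libraries. The lowest share in each group was that of TRPM2 Mg KO bilirubin replicate 2, WT bilirubin replicate 1 and WT vehicle replicate 1.

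Across the 8 cell classes with at least 20 cells in every library, the median level of each of the 10 genes over the 6 libraries was highest in choroid plexus cells. Levels here are CPM, the UMIs of a gene relative to all UMIs of that class in that library, scaled to a common total, and a 3' kit counts 1 tag per molecule whatever the length of the gene. For 9 of the 10 genes every library's choroid plexus level was above every library's level in the class ranked next. The exception was Igf2, at 16.9 to 32.3 CPM in choroid plexus cells and 0 to 28.2 CPM in mural cells. Ttr ran from 121413 to 212643 CPM in choroid plexus cells and from 2687 to 32052 CPM in ependymal cells, the class ranked next. Enpp2 ran from 4773 to 10755 CPM in choroid plexus cells and from 892 to 2690 CPM in oligodendrocytes. Folr1 ran from 290.4 to 863 CPM in choroid plexus cells and from 164 to 264 CPM in ependymal cells, the cilia-bearing lining of the ventricles, whose lowest library lay above every library of the class ranked next.

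**Figure D1:**
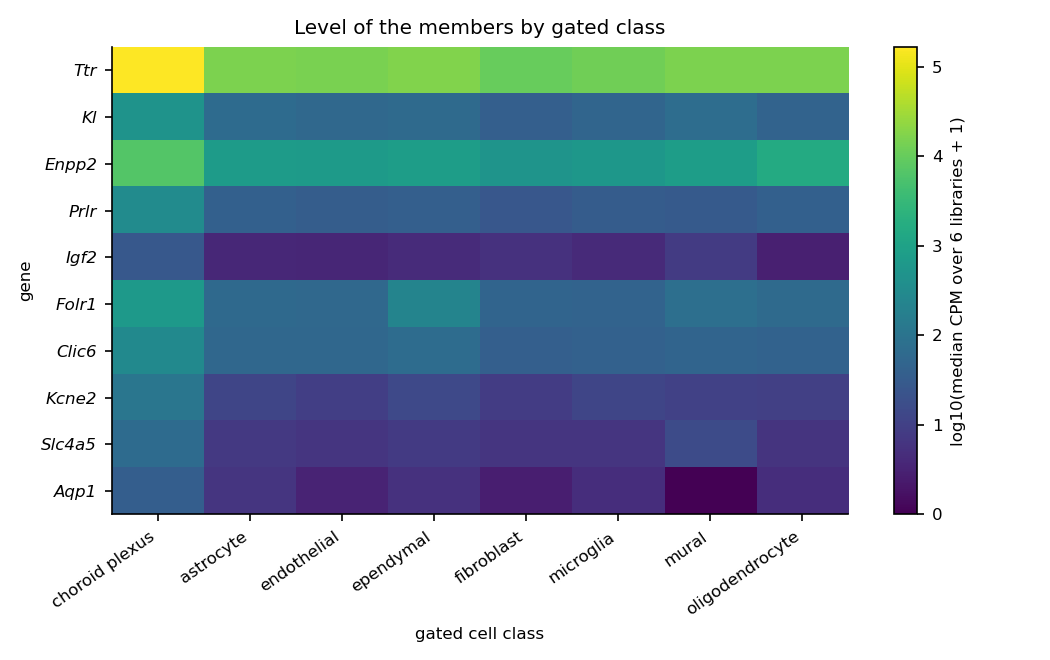
Levels of the 10 genes (rows) in 8 gated cell classes (columns), as the log10 of the median CPM over 6 libraries plus 1. The choroid plexus column is the brightest in every row, Folr1 has a second bright cell in the ependymal column, and Enpp2 has one in the oligodendrocyte column.

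UMIs of these genes were counted in other classes too, many of them near the proportion that choroid plexus cells have. In microglia, which are not known to make transthyretin, a Ttr UMI was found in 99.8% ± 0.213 of cells of the TRPM2 Mg KO bilirubin libraries, 99.9% ± 0.102 in the WT bilirubin libraries and 80.5% ± 26.4 in the WT vehicle libraries (SD, n = 2 libraries each). The UMIs of each gene per Ttr UMI in a class were set against the same ratio in the choroid plexus cells of that library. A value of 1 means the same proportion as in choroid plexus cells. For Folr1 the value in microglia was 1.02 (95% exact Poisson interval 0.953 to 1.09). It was 1.01 (0.929 to 1.10) in endothelial cells and 0.98 (0.831 to 1.15) in oligodendrocytes. These intervals cover only the counting error of the gene's UMIs in the class. They take the number given by the choroid plexus ratio as exact. In these classes Folr1, pooled over the libraries, came with Ttr near the choroid plexus proportion. Single libraries ran from 0.929 to 1.43 in microglia, 0 to 1.14 in endothelial cells and 0.839 to 1.55 in oligodendrocytes. This did not hold for the other genes in microglia, where every interval lay above 1. Their values ran from 1.07 (1.05 to 1.09) for Enpp2 to 1.87 (1.74 to 2.00) for Clic6, with Kl at 1.28 and Kcne2 at 1.33.

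A few pairs of gene and class lay well above 1. In oligodendrocytes, which are known to make autotaxin, Enpp2 had 4495 UMIs where the choroid plexus ratio gives 1820, a value of 2.47 (2.40 to 2.54), and the 6 libraries ran from 1.99 to 4.0. In ependymal cells Folr1 had 743 UMIs where the ratio gives 272, a value of 2.73 (2.54 to 2.94), and the 6 libraries ran from 1.71 to 31.8. In fibroblasts, which make Igf2 in the meninges, Igf2 had 22 UMIs where the ratio gives 5.39, a value of 4.08 (2.56 to 6.18), with libraries from 1.28 to 7.11. Clic6 lay between 1.59 and 1.9 in all 7 other classes, so that it stood above the choroid plexus proportion in each of them. Kl lay between 1.09 and 1.29 in the same classes. For Aqp1 and Slc4a5 in endothelial cells, at 27 and 50 UMIs, the values were 1.00 (0.657 to 1.45) and 1.09 (0.811 to 1.44).

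**Figure D2:**
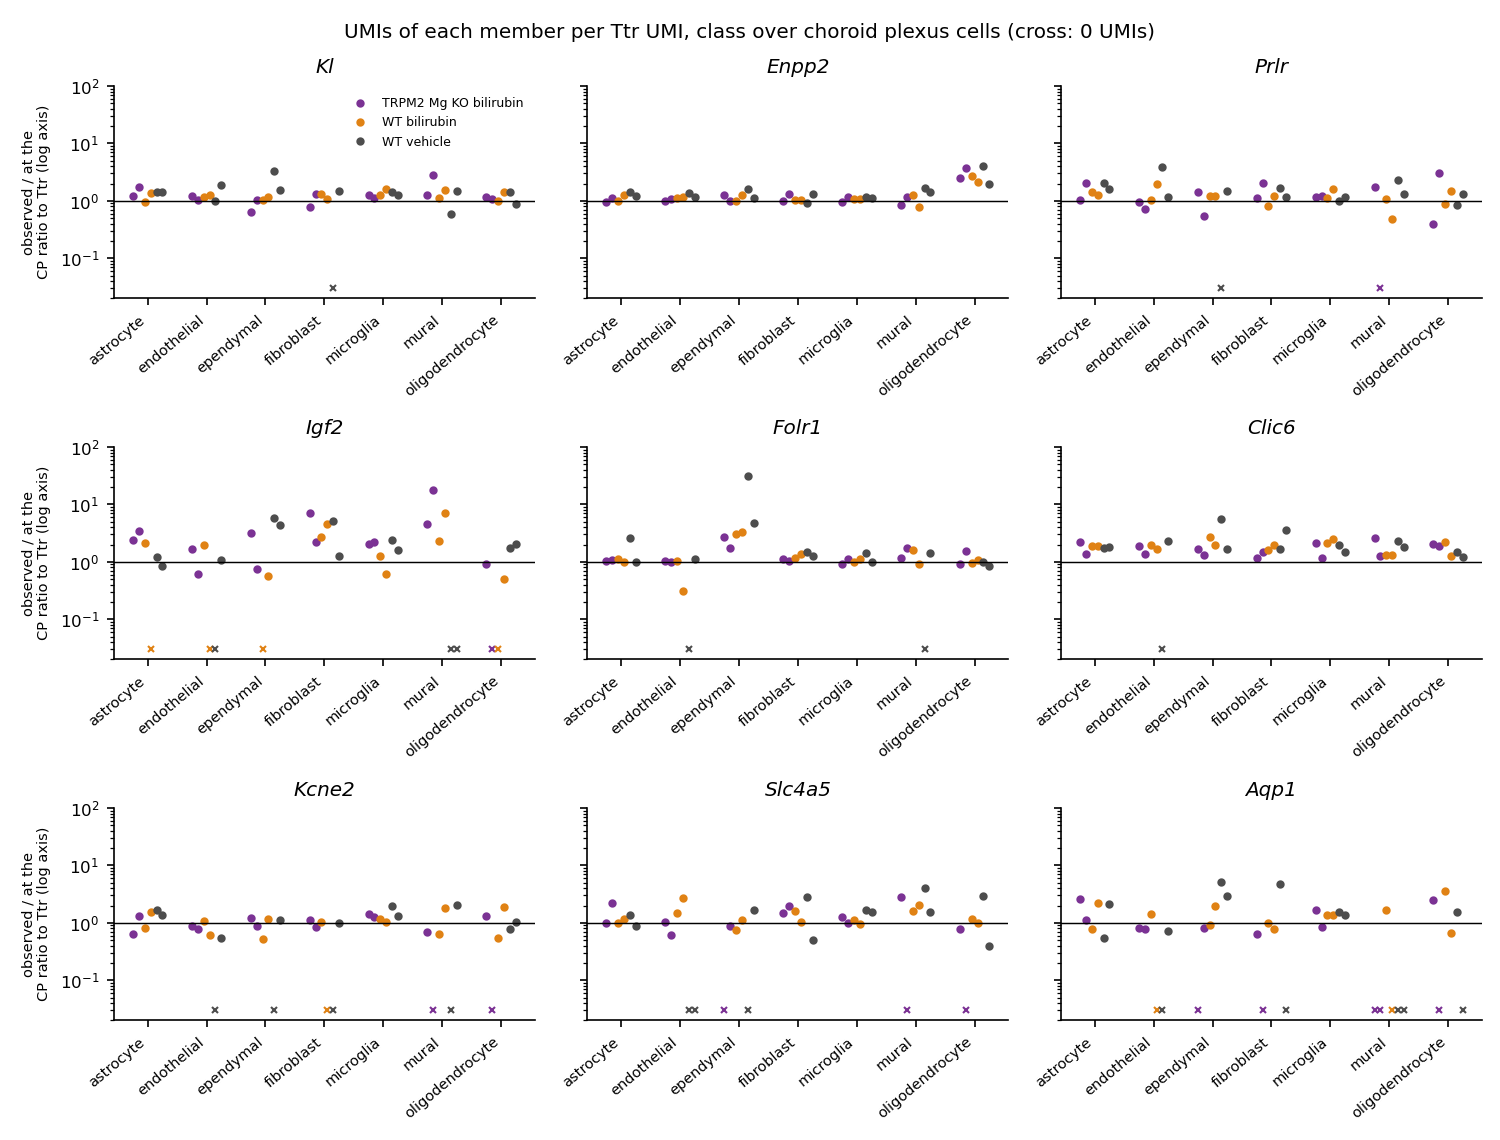
UMIs of 9 genes per Ttr UMI in each of 7 cell classes, divided by the same ratio in the choroid plexus cells of the same library (log axis). Each point is 1 library, coloured by group, the line is at 1, and crosses at the bottom are libraries with 0 UMIs. Enpp2 in oligodendrocytes and Folr1 in ependymal cells lie above 1 in all 6 libraries.

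Of the secreted proteins in choroid plexus cells, Ttr was at 168348 and 137527 CPM in the TRPM2 Mg KO bilirubin libraries, 181099 and 220699 CPM in the WT bilirubin libraries, and 118400 and 162263 CPM in the WT vehicle libraries (CPM here scaled by TMM factors). Both WT bilirubin libraries lay above all others, and the other groups overlapped. Enpp2, whose product autotaxin makes the signalling lipid lysophosphatidic acid, was at 9656 and 4728 CPM in the TRPM2 Mg KO bilirubin libraries, 7214 and 11162.5 CPM in the WT bilirubin libraries, and 5614 and 5643 CPM in the WT vehicle libraries. The WT vehicle libraries lay below both WT bilirubin libraries and between the 2 knockout libraries. Igf2, a growth factor secreted into the fluid, was at 28.9 and 19.3 CPM in the TRPM2 Mg KO bilirubin libraries, 16.9 and 33.5 CPM in the WT bilirubin libraries, and 27.1 and 25.3 CPM in the WT vehicle libraries. All 3 groups overlapped for Igf2, which in WT vehicle replicate 1 rested on 17 UMIs.

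Of the receptors, Folr1, which takes folate into the fluid, was at 829 and 571 CPM in the TRPM2 Mg KO bilirubin libraries, 860.4 and 776 CPM in the WT bilirubin libraries, and 283 and 494 CPM in the WT vehicle libraries. Both bilirubin groups lay above both WT vehicle libraries and overlapped each other. Kl was at 712 and 360.3 CPM in the TRPM2 Mg KO bilirubin libraries, 483 and 769 CPM in the WT bilirubin libraries, and 333 and 478 CPM in the WT vehicle libraries. WT bilirubin replicate 1 and WT vehicle replicate 2 were nearly level for Kl, and the knockout overlapped both other groups. Prlr was at 413 and 252 CPM in the TRPM2 Mg KO bilirubin libraries, 287 and 495 CPM in the WT bilirubin libraries, and 170.3 and 394 CPM in the WT vehicle libraries. All 3 groups overlapped for Prlr.

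Of the genes of ion and water transport, Clic6, a chloride intracellular channel protein, was at 249 and 265 CPM in the TRPM2 Mg KO bilirubin libraries, 328 and 546 CPM in the WT bilirubin libraries, and 258 and 342 CPM in the WT vehicle libraries. The knockout libraries lay below both WT bilirubin libraries, and the wild-type groups overlapped. Kcne2, a subunit that sets the gating of potassium channels, was at 186 and 100.1 CPM in the TRPM2 Mg KO bilirubin libraries, 122 and 133 CPM in the WT bilirubin libraries, and 60.5 and 98.9 CPM in the WT vehicle libraries. Both bilirubin groups lay above the WT vehicle libraries, though 1 knockout and 1 vehicle library were almost level. Slc4a5, a sodium bicarbonate cotransporter, was at 67.9 and 43.7 CPM in the TRPM2 Mg KO bilirubin libraries, 73.0 and 118 CPM in the WT bilirubin libraries, and 49.3 and 65.5 CPM in the WT vehicle libraries. Aqp1, the water channel of the apical membrane, was at 32.7 and 29.6 CPM in the TRPM2 Mg KO bilirubin libraries, 46.4 and 77.1 CPM in the WT bilirubin libraries, and 30.2 and 37.5 CPM in the WT vehicle libraries. For Slc4a5 and Aqp1 the WT bilirubin libraries lay above both other groups, which overlapped each other.

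**Figure D3:**
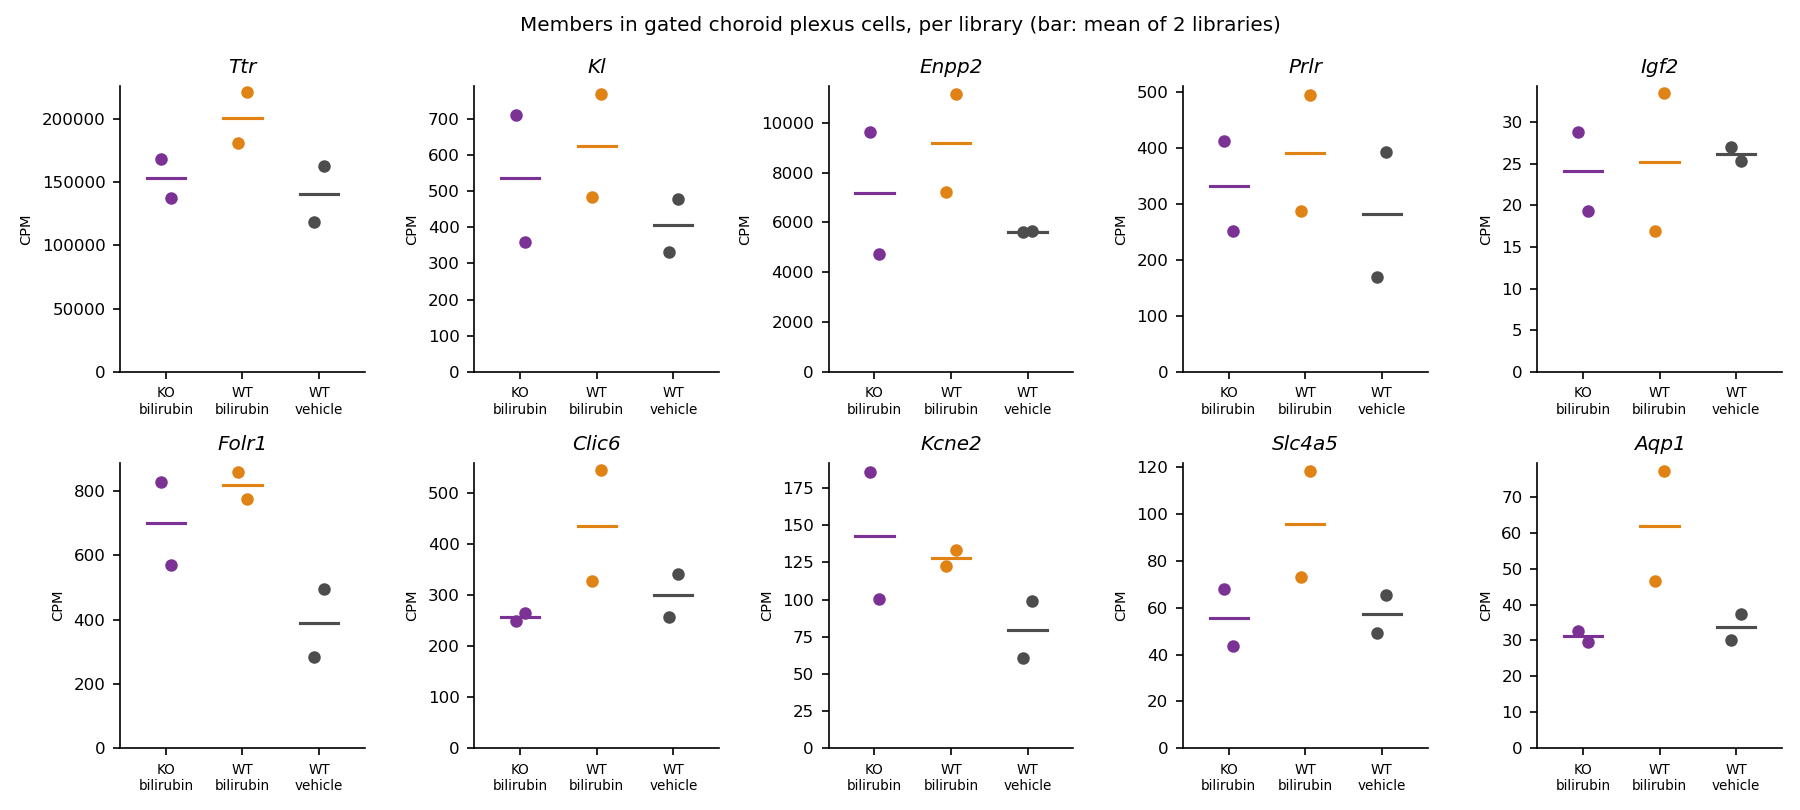
TMM-scaled CPM of each of the 10 genes in gated choroid plexus cells, with 1 point per library and a bar at the mean of the 2 libraries of each group. For Ttr, Slc4a5 and Aqp1 the WT bilirubin points lie above all points of both other groups, while for Igf2 and Prlr the groups overlap.

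WT bilirubin was compared with WT vehicle to ask what bilirubin does in wild-type brain cells. In choroid plexus cells 9 of the 10 genes had a log2 fold change above 0, and none passed the test (edgeR quasi-likelihood test, Benjamini-Hochberg adjusted p, threshold 0.05). The unadjusted p was under 0.05 for 3 of the 10, and DESeq2 also called 0. Of all 14964 genes tested in these cells, 1441 had an unadjusted p under 0.05 and 0.0334% were called. The largest difference was that of Folr1, at 818 ± 59.3 CPM in WT bilirubin and 389 ± 149 CPM in WT vehicle (SD, n = 2 libraries each), a log2 fold change of 1.06 (SE 0.33, edgeR adjusted p = 0.17). Aqp1 followed with 0.83 (SE 0.36), Enpp2 with 0.71 (SE 0.33) and Slc4a5 with 0.70 (SE 0.36). Ttr stood at 0.52 (SE 0.26), and Igf2 at -0.05 (SE 0.39).

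The median log2 fold change over the 10 genes was 0.63, and that over all genes tested was 0.01. For 7 of the 10 both WT bilirubin libraries lay above both WT vehicle libraries, which was so for 20.4% of all genes tested, and 43.5% of all genes had no overlap in either direction. Of the 20 marker genes of the gate 19 were above 0, with a median of 0.53, 3 at an unadjusted p under 0.05 and 0 called by edgeR. The levels of these markers decided which cells were gated, so they are no independent support for the 10 genes. Without WT vehicle replicate 1, the library with 187 choroid plexus cells, all 10 genes were above 0 with a median of 0.44. Without WT vehicle replicate 2 the median was 0.99. Folr1 passed the test when TRPM2 Mg KO bilirubin replicate 1 or 2 was left out of the shared fit, with adjusted p = 0.0413 and 0.0407 (edgeR).

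The knockout with bilirubin was compared with WT bilirubin to ask what the loss of Trpm2 does under bilirubin. Here 9 of the 10 genes had a log2 fold change below 0, and none passed the test by edgeR. The unadjusted p was under 0.05 for 3 of the 10, DESeq2 called 0, and of all 14964 genes tested 740 had such a p and 0.0401% were called. The 3 were genes of ion and water transport. Aqp1 was at 31.1 ± 2.14 CPM in TRPM2 Mg KO bilirubin and 61.8 ± 21.7 CPM in WT bilirubin (SD, n = 2 libraries each), a log2 fold change of -0.98 (SE 0.34, edgeR adjusted p = 0.76). Slc4a5 and Clic6 both stood at -0.77 (SE 0.35 and 0.33). Kcne2 was the gene above 0, at 0.17 (SE 0.35), and Ttr stood at -0.39 (SE 0.26).

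Over the 10 genes the median was -0.29, against -0.01 over all genes tested. It depended on how choroid plexus cells were chosen. The median was -0.13 with a stricter gate, and -0.11 both with clusters in place of the gate and with gated cells inside the clusters. In each of these settings 3 of the 10 genes were above 0. With a looser gate the median was -0.44, with 1 above 0. The lower levels were not particular to the 10 genes. Of the 20 marker genes of the gate 2 were above 0, with a median of -0.37. By edgeR 3 of these 20 had an unadjusted p under 0.05 and 0 were called, and their levels also decided which cells were gated. For Ttr, Clic6, Slc4a5 and Aqp1 both knockout libraries lay below both WT bilirubin libraries, which was so for 14.3% of all genes tested, and 28.9% had no overlap in either direction. Those 4 genes stayed below 0 with any 1 library left out, while the sign of each of the other 6 turned with at least 1 library left out. Without TRPM2 Mg KO bilirubin replicate 2, 6 of the 10 genes were above 0 and the median was 0.05, and without WT bilirubin replicate 2, 5 were above 0 with a median of -0.12. Without TRPM2 Mg KO bilirubin replicate 1 none was above 0 and the median was -0.73, and without WT bilirubin replicate 1 it was -0.55.

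Set against WT vehicle, the knockout with bilirubin had 6 genes above 0 and 4 below, and none passed the test by edgeR. The unadjusted p was under 0.05 for 2 of the 10, DESeq2 called 0, and of all 14964 genes tested 626 had such a p and 0.0802% were called. The 2 were Folr1, at 700.1 ± 182 CPM in TRPM2 Mg KO bilirubin and 389 ± 149 CPM in WT vehicle (SD, n = 2 libraries each), and Kcne2, at 143 ± 60.6 CPM in TRPM2 Mg KO bilirubin and 79.7 ± 27.1 CPM in WT vehicle. Their log2 fold changes were 0.84 (SE 0.33) and 0.80 (SE 0.36), both with an edgeR adjusted p of 1.00. They were also the 2 genes without overlap, and 34.5% of all genes had none. The median over the 10 genes was 0.17. It was 0.39 with a stricter gate, 0.41 with clusters in place of the gate and 0.39 with gated cells inside the clusters. In each of these settings 9 of the 10 were above 0. With a looser gate the median was 0.17, with 7 above 0. The 3 comparisons share libraries by pairs, so their values are given side by side and are not independent of each other.

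**Figure D4:**
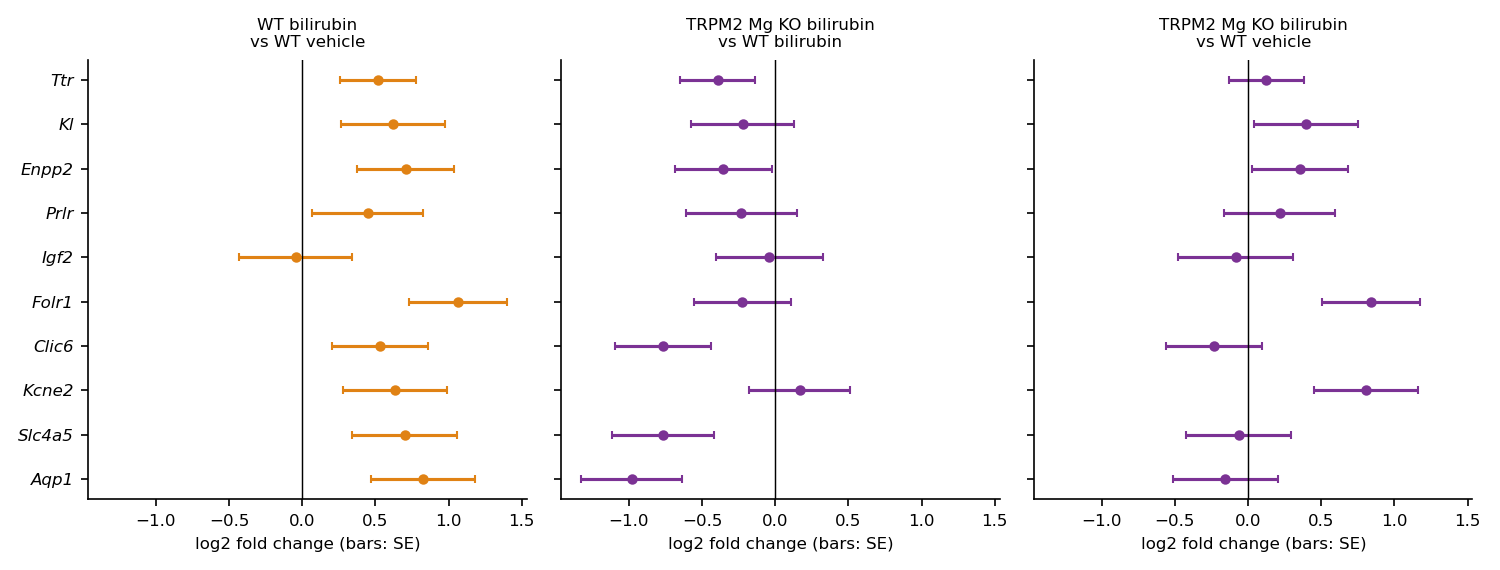
Log2 fold changes of the 10 genes in choroid plexus cells (points) with their standard errors (bars) in the 3 comparisons, the first group named over the second, so that points right of 0 are higher in the first. In WT bilirubin against WT vehicle 9 points lie right of 0, in TRPM2 Mg KO bilirubin against WT bilirubin 9 lie left of 0, and no point passed the test.

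RNA of other cells and mitochondrial RNA also differed between these choroid plexus cells. The 15 neuronal transcripts, which the epithelium does not make, summed to 1517 and 3422 CPM in the TRPM2 Mg KO bilirubin libraries, 972 and 1044 CPM in the WT bilirubin libraries, and 9208 and 2702 CPM in the WT vehicle libraries. None of the 15 was above 0 in WT bilirubin against WT vehicle, with a median of -1.66, and Bc1, a neuronal noncoding RNA, fell by 2.79 on the log2 scale (SE 0.49, edgeR adjusted p = 0.0438). DESeq2 called 5 of the 15 there, and all 15 had an unadjusted p under 0.05. Between the knockout and WT bilirubin 14 of 15 were above 0, with a median of 0.85, and 0 were called by edgeR or DESeq2, with 6 at an unadjusted p under 0.05. Against WT vehicle the knockout had none of the 15 above 0, with a median of -0.87, 8 at an unadjusted p under 0.05 and 0 called by edgeR or DESeq2. Nrgn, a postsynaptic protein of neurons, had the smallest p there, at 34.1 and 60.5 CPM in the TRPM2 Mg KO bilirubin libraries and 175 and 75.8 CPM in the WT vehicle libraries. The 5 erythroid markers, haemoglobin genes among them, summed to 9650.2 and 604 CPM in the TRPM2 Mg KO bilirubin libraries, 2724 and 2366 CPM in the WT bilirubin libraries, and 26866 and 14538 CPM in the WT vehicle libraries. In WT bilirubin against WT vehicle 0 of 10 microglial, 0 of 10 astrocyte and 0 of 10 oligodendrocyte markers were above 0, with medians of -0.73, -0.80 and -0.80. None of these markers was called by edgeR, with 4, 3 and 3 at an unadjusted p under 0.05, and DESeq2 called 1 microglial, 2 astrocyte and 0 oligodendrocyte markers. Of 9 neutrophil markers 5 were tested, and all 5 were above 0 there, with a median of 2.62, an unadjusted p under 0.05 for each, 0 called by edgeR and 2 by DESeq2. The part of these transcripts in the levels of the 10 genes was not tested.

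Mitochondrially encoded genes summed to 21689 and 31358 CPM in the TRPM2 Mg KO bilirubin libraries, 27520 and 8938 CPM in the WT bilirubin libraries, and 5685 and 6089 CPM in the WT vehicle libraries. All 13 were above 0 in the 3 comparisons. The knockout had 10 of 13 called higher than WT vehicle by edgeR and 9 called by DESeq2, led by mt-Atp8 with a log2 fold change of 3.07 (SE 0.38, edgeR adjusted p = 0.000524). In WT bilirubin against WT vehicle mt-Cytb rose, at 4931 and 1476 CPM in the WT bilirubin libraries and 563 and 799 CPM in the WT vehicle libraries, a log2 fold change of 2.23 (SE 0.41, edgeR adjusted p = 0.0438, DESeq2 6 of 13 called). Between the knockout and WT bilirubin mt-Atp8 rose, at 297 and 189 CPM in the TRPM2 Mg KO bilirubin libraries and 67.2 and 68.9 CPM in the WT bilirubin libraries, a log2 fold change of 1.84 (SE 0.34, edgeR adjusted p = 0.0432, DESeq2 1 of 13 called). Without WT vehicle replicate 1 no gene at all was called in any of the 3 comparisons, and without WT vehicle replicate 2 none was called in either knockout comparison and 1 in WT bilirubin against WT vehicle (edgeR). TRPM2 Mg KO bilirubin replicate 2 had the highest sums of endothelial, microglial and immediate-early transcripts, at 881, 1201 and 1665 CPM, where the other 5 libraries ran from 75.9 to 366, 312 to 875 and 389 to 897 CPM. Between the knockout and WT bilirubin all 10 endothelial, 10 mural, 10 microglial, 10 astrocyte and 10 oligodendrocyte markers were above 0, with medians of 1.59, 1.35, 0.92, 0.82 and 0.75. None of these was called by edgeR or DESeq2, and 10, 5, 7, 4 and 3 had an unadjusted p under 0.05. Of 16 immediate-early genes none was called by edgeR or DESeq2, and 1, 6 and 3 had an unadjusted p under 0.05 in WT bilirubin against WT vehicle, the knockout against WT bilirubin and the knockout against WT vehicle. Jun, a stress-induced transcription factor with the smallest p between the knockout and WT bilirubin, was at 110.2 and 248 CPM in the TRPM2 Mg KO bilirubin libraries and 114 and 44.5 CPM in the WT bilirubin libraries. The part of these transcripts and of that library's foreign RNA in the lower levels of the 10 genes was not tested.

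The gene lists around these 10 genes, chosen with earlier results of these data known, showed few calls in choroid plexus cells. Among 20 tested genes of ion and water transport none was called by edgeR or DESeq2 in any of the 3 comparisons, and 3, 3 and 0 had an unadjusted p under 0.05 in WT bilirubin against WT vehicle, the knockout against WT bilirubin and the knockout against WT vehicle. Of the 20, there were 14 above 0 in WT bilirubin against WT vehicle and 6 above 0 in the knockout against WT bilirubin. The gene with the smallest p in WT bilirubin against WT vehicle was Atp1b1, a sodium pump subunit, at 459 and 499.9 CPM in the WT bilirubin libraries and 259 and 300.2 CPM in the WT vehicle libraries. Between the knockout and WT bilirubin it was Slc12a2, the sodium, potassium and chloride cotransporter of the apical membrane, at 77.7 and 73.9 CPM in the TRPM2 Mg KO bilirubin libraries and 122 and 189 CPM in the WT bilirubin libraries, a log2 fold change of -1.03 (SE 0.33, edgeR adjusted p = 0.71). As for Clic6, Slc4a5 and Aqp1, both knockout libraries lay below both WT bilirubin libraries, which was so for 14.3% of all genes tested. For Kcne2, of the same role, the groups overlapped.

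Carriers of organic solutes and vitamins had 0 of 18 called in every comparison by edgeR or DESeq2, with 2 to 3 at an unadjusted p under 0.05. Slc31a1, a copper transporter, was at 169 and 149.9 CPM in the WT bilirubin libraries and 38.2 and 81.1 CPM in the WT vehicle libraries (log2 fold change 1.34, SE 0.37, edgeR adjusted p = 0.12). Of the 11 genes of the folate cycle, which uses what Folr1 carries, none was called by edgeR or DESeq2, at most 1 had an unadjusted p under 0.05, and 9 were above 0 in WT bilirubin against WT vehicle. Ggh, which trims folate polyglutamates, was at 312 and 275 CPM in the WT bilirubin libraries and 119 and 215 CPM in the WT vehicle libraries.

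Other secreted proteins had 0 of 19 called by edgeR or DESeq2, with 4 to 9 at an unadjusted p under 0.05. In WT bilirubin against WT vehicle the smallest p was that of Cst3, the protease inhibitor cystatin C, at 8356 and 5713 CPM in the WT bilirubin libraries and 21430.3 and 14546 CPM in the WT vehicle libraries (log2 fold change -1.35, SE 0.35, edgeR adjusted p = 0.094). Cst3 thus stood on the other side from Ttr and Enpp2. The genes of this list are also counted in other cells. In WT vehicle they summed to 23166 to 29878 CPM in choroid plexus cells and 42747 to 63986 CPM in whole libraries. The part of other cells' RNA in the levels of Cst3 was not tested. Between the knockout and WT bilirubin the gene of this list with the smallest p was Cxcl12, a chemokine, at 59.4 and 216 CPM in the TRPM2 Mg KO bilirubin libraries and 35.3 and 7.54 CPM in the WT bilirubin libraries (edgeR adjusted p = 0.10). Endothelial markers in the same gated cells summed to 366 to 881 CPM in the TRPM2 Mg KO bilirubin libraries and 75.9 to 331 CPM in the WT bilirubin libraries. The part of endothelial RNA in the levels of Cxcl12 was not tested. In the list on thyroid hormone and retinol, none of 10 was called by edgeR, 0 to 2 had an unadjusted p under 0.05, and DESeq2 called 1 in WT bilirubin against WT vehicle. Dio2, which activates thyroid hormone in astrocytes, was at 3.31 and 2.26 CPM in the WT bilirubin libraries and 25.5 and 12.3 CPM in the WT vehicle libraries (edgeR adjusted p = 0.051). Astrocyte markers in the same gated cells had 0 of 10 above 0 in this comparison, with a median of -0.80. The part of astrocyte RNA in the levels of Dio2 was not tested.

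The lists on the partners of single genes held no calls either. Of 9 tested genes of prolactin receptor signalling, 8 of the IGF system, 7 of lysophosphatidic acid and 5 of klotho partners, none was called by edgeR in any comparison, with 0 to 2 of a list at an unadjusted p under 0.05, and DESeq2 called 1 of the IGF system in the knockout against WT vehicle. Igfbp7, a secreted binding protein of insulin-like growth factors, was at 229 and 307 CPM in the TRPM2 Mg KO bilirubin libraries, 227 and 167 CPM in the WT bilirubin libraries, and 87.5 and 110.4 CPM in the WT vehicle libraries, both bilirubin groups above the vehicle one. Its log2 fold change was 1.42 in the knockout against WT vehicle (SE 0.33, edgeR adjusted p = 0.22). Cish, a feedback inhibitor of STAT5 signalling, was at 5.65 and 6.24 CPM in the TRPM2 Mg KO bilirubin libraries and 7.62 and 15.4 CPM in the WT bilirubin libraries. Fgfr3, a receptor that pairs with klotho, was at 6.92 and 3.96 CPM in the WT bilirubin libraries and 14.3 and 8.54 CPM in the WT vehicle libraries. The groups did not overlap, which was so for 43.5% of all genes tested, in either direction. Fgfr3 is also among the 10 astrocyte markers, of which 0 were above 0 in this comparison, and its source in these cells was not tested.

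The receptors for other hormones had 0 of 15 called and tight junctions 0 of 12 by edgeR or DESeq2, with 0 to 1 at an unadjusted p under 0.05. Htr2c, the serotonin receptor of the choroid plexus, was at 138 and 128 CPM in the TRPM2 Mg KO bilirubin libraries, 124 and 279 CPM in the WT bilirubin libraries, and 119 and 118 CPM in the WT vehicle libraries. The 5 other libraries of Htr2c lay close together, below WT bilirubin replicate 2. Cdh2, the adhesion protein N-cadherin, was at 12.5 and 12.3 CPM in the WT bilirubin libraries and 39.8 and 18.3 CPM in the WT vehicle libraries. Plpp1, which breaks down the lipid that autotaxin makes, was at 58.5 and 39.4 CPM in the WT bilirubin libraries and 14.3 and 24.2 CPM in the WT vehicle libraries.

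Among 13 tested acute-phase and innate genes, 1 was called, in the knockout against WT bilirubin. Cebpb, a transcription factor of the acute phase, fell in the knockout, at 4.61 and 5.61 CPM in TRPM2 Mg KO bilirubin and 33.2 and 22.7 CPM in WT bilirubin (log2 fold change -2.48, SE 0.39, edgeR adjusted p = 0.0144). The WT vehicle libraries had 20.7 and 14.2 CPM of Cebpb. By edgeR 3 to 4 of the 13 had an unadjusted p under 0.05 in a comparison, and DESeq2 called 1, in the knockout against WT bilirubin. Lcn2, an iron-sequestering protein of innate defence, was at 14.5 and 3.39 CPM in the WT bilirubin libraries and 3.18 and 0.787 CPM in the WT vehicle libraries (log2 fold change 3.22, SE 0.78, edgeR adjusted p = 0.082).

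Of the 5 neutrophil markers tested, 1 was above 0 between the knockout and WT bilirubin, with a median of -0.94, 2 at an unadjusted p under 0.05, 1 called by edgeR and 0 by DESeq2. The 9 markers summed to 36.5 and 120.0 CPM in the TRPM2 Mg KO bilirubin libraries, 83.3 and 117 CPM in the WT bilirubin libraries, and 16.3 and 23.3 CPM in the WT vehicle libraries, so that the knockout and WT bilirubin overlapped. The gene called by edgeR, Camp, a granule gene, fell, at 0.67 and 1.25 CPM in TRPM2 Mg KO bilirubin and 7.57 and 8.95 CPM in WT bilirubin (edgeR adjusted p = 0.0247). Camp is not known as a gene of this epithelium, and its source in these cells was not tested. Without WT vehicle replicate 1 or 2, or with the replicate numbers as a block, no gene was called in this comparison (edgeR).

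The share of choroid plexus cells with at least 1 UMI followed depth as well as level. For Folr1 it was 90.1% ± 3.39 in TRPM2 Mg KO bilirubin, 89.2% ± 6.94 in WT bilirubin and 68.6% ± 19.9 in WT vehicle (SD, n = 2 libraries each). With every cell thinned to 1000 UMIs it was 49.3% ± 7.0 in TRPM2 Mg KO bilirubin, 53.1% ± 3.37 in WT bilirubin and 30.6% ± 8.19 in WT vehicle. In microglia, which are not known to make it, the thinned shares were 5.38% ± 1.33 in TRPM2 Mg KO bilirubin, 4.91% ± 1.21 in WT bilirubin and 2.6% ± 1.8 in WT vehicle, each below the share in choroid plexus cells. For Aqp1 the thinned shares were 3.30% ± 0.0719 in TRPM2 Mg KO bilirubin, 6.26% ± 2.16 in WT bilirubin and 3.52% ± 0.263 in WT vehicle, and before thinning they were 21.6% in TRPM2 Mg KO bilirubin, 26.9% in WT bilirubin and 14.0% in WT vehicle. The microglial shares of Aqp1 after thinning were between 0.275% and 0.44%. Thinning left out 20 and 7 choroid plexus cells across the TRPM2 Mg KO bilirubin libraries, 6 and 59 across the WT bilirubin libraries, and 2 and 3 across the WT vehicle libraries. It left out 93 of 1442 and 33 of 332 microglia across the TRPM2 Mg KO bilirubin libraries, 71 of 1425 and 310 of 935 across the WT bilirubin libraries, and 147 of 1404 and 45 of 1861 across the WT vehicle libraries. Before thinning the medians of UMIs per microglial cell ran from 1720.5 to 2870.0.

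In whole libraries all 10 genes had a log2 fold change above 0 in WT bilirubin against WT vehicle, with a median of 1.17, and none passed the test by edgeR or DESeq2. The unadjusted p was under 0.05 for 0 of the 10, and 0.00522% of all genes tested were called. Ttr was at 68753 and 77486 CPM in the TRPM2 Mg KO bilirubin libraries, 94025 and 114321 CPM in the WT bilirubin libraries, and 10800 and 86214 CPM in the WT vehicle libraries. WT vehicle replicate 1 was below all 5 other libraries. Without that library the median was 0.35, with 9 of 10 above 0, and without WT vehicle replicate 2 it was 3.25 and 8 of the 10 genes passed the test. In sums over a whole library, fewer choroid plexus cells and less RNA per cell cannot be told apart.

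In the knockout against WT bilirubin all 10 genes were below 0 in whole libraries, with a median of -0.54, none was called by edgeR or DESeq2, and the background was again 0.00522%. None of the 10 had an unadjusted p under 0.05. This median was -0.31 without WT bilirubin replicate 2, -0.35 without TRPM2 Mg KO bilirubin replicate 2 and -0.84 without WT bilirubin replicate 1. In the knockout against WT vehicle all 10 were above 0, with a median of 0.50, and none of the 10 genes was called by edgeR or DESeq2 or had an unadjusted p under 0.05, while 0% of all genes were called. Without WT vehicle replicate 1 this median was -0.27, with 3 of 10 above 0, and without WT vehicle replicate 2 it was 2.59, with 1 of the 10 called. When the choroid plexus cells were left out of the libraries, the median in WT bilirubin against WT vehicle was 0.33, with 9 of 10 above 0, against 1.17 with them. In the same setting 9 of 10 genes were above 0 in the knockout against WT bilirubin, with a median of 0.31, where the whole libraries had none above 0.

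The share of choroid plexus cells among kept cells was 11.2% and 9.57% across the TRPM2 Mg KO bilirubin libraries, 15.4% and 28.4% across the WT bilirubin libraries, and 1.14% and 14.99% across the WT vehicle libraries. The log2 ratio of WT bilirubin to WT vehicle was 1.44 (SE 0.95, edgeR adjusted p = 0.33 over 18 classes), that of the knockout to WT bilirubin was -1.08 (SE 0.94, adjusted p = 0.60, edgeR), and that of the knockout to WT vehicle was 0.36 (adjusted p = 0.89, edgeR). Without WT vehicle replicate 2 the ratio of WT bilirubin to WT vehicle was 4.27 and passed the test (edgeR adjusted p = 0.0157). How the tissue was dissected and dissociated was not given in the sources used here, and its part in these shares was not tested.

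The gated cells held very different parts of each gene's UMIs. For Ttr it was 75.6% and 28.0% across the TRPM2 Mg KO bilirubin libraries, 77.8% and 87.2% across the WT bilirubin libraries, and 26.3% and 65.4% across the WT vehicle libraries. TRPM2 Mg KO bilirubin replicate 2 and WT vehicle replicate 1, with the fewest choroid plexus cells, had most of their Ttr UMIs outside them. The other 9 genes kept the same order of libraries, with WT bilirubin replicate 2 highest and WT vehicle replicate 1 lowest for each.

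**Figure D5:**
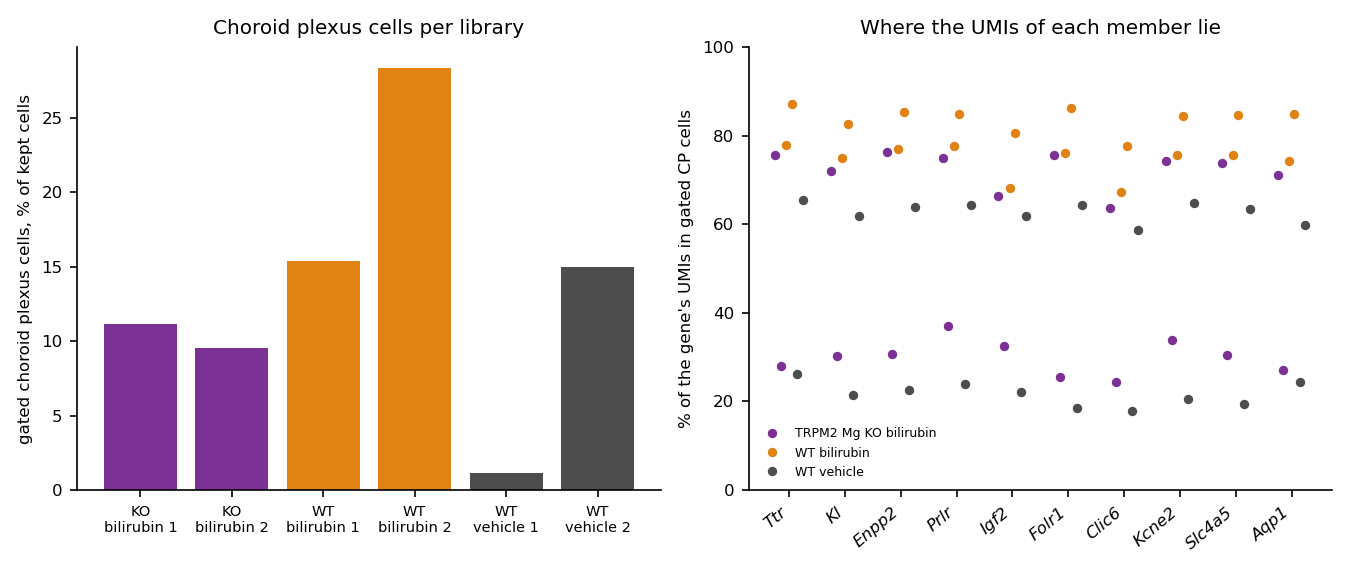
Left, gated choroid plexus cells as a percentage of kept cells in each of the 6 libraries, from 1.14% in WT vehicle replicate 1 to 28.4% in WT bilirubin replicate 2. Right, the percentage of each gene's UMIs in kept cells that lay in gated choroid plexus cells (CP), 1 point per library, with TRPM2 Mg KO bilirubin replicate 2 and WT vehicle replicate 1 below 40% for all 10 genes.

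In the 7 other classes none of the 10 genes was called in any comparison by edgeR or DESeq2, where 0.812% of all genes tested in these classes were called in WT bilirubin against WT vehicle, 0.0101% in the knockout against WT bilirubin and 0.00844% in the knockout against WT vehicle. At most 4 of the 10 had an unadjusted p under 0.05 in a class and comparison. Not all of them passed the filter on low counts and were tested in each class. Those tested numbered 10 in microglia, 9 in astrocytes and 2 in mural cells. They numbered 6 each in endothelial cells, ependymal cells, fibroblasts and oligodendrocytes. The largest median difference was that in oligodendrocytes in WT bilirubin against WT vehicle, where 6 of the 10 genes passed the filter on low counts and all 6 were above 0. There 4 had an unadjusted p under 0.05 by edgeR, as did 1065 of all 7110 genes tested, and 1.65% of all genes were called. Folr1 was at 89.1 ± 11.2 CPM in WT bilirubin oligodendrocytes and 30.2 ± 24.2 CPM in WT vehicle ones (SD, n = 2 libraries each), a log2 fold change of 1.63 (SE 0.45, edgeR adjusted p = 0.078). Ttr in the same cells was at 22019 ± 5466 CPM in WT bilirubin and 11974 ± 9275 CPM in WT vehicle. Pooled over the libraries, Folr1 in oligodendrocytes stood at 0.98 of the choroid plexus ratio to Ttr, and single libraries ran from 0.839 to 1.55. The part of choroid plexus RNA in the Folr1 difference was not tested. Enpp2, which these cells make, was at 2372 ± 585 CPM in WT bilirubin and 1154 ± 180 CPM in WT vehicle (log2 fold change 1.04, SE 0.32, edgeR adjusted p = 0.11). Without WT bilirubin replicate 1, 5 of the 6 genes passed the test in oligodendrocytes, and without WT vehicle replicate 2, Ttr and Folr1 did.

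Over the 8 classes and 6 libraries, 48 points that share libraries and depth, the genes whose log2 CPM was most like that of the 10 genes summed were 2900040C04Rik with a Pearson r of 0.95, Rdh5 with 0.93, Hemk1 with 0.92, Prcd with 0.91 and Thyn1 with 0.90. Among the 10 genes, each set against the sum of the others, Ttr, Enpp2 and Kl had 0.94, 0.93 and 0.90. Igf2 was least like the rest with 0.58, and Aqp1 and Folr1 had 0.70 and 0.75. These are descriptions over classes and not tests.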

How the data were processed

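RNA of mouse brain cells was counted with a 10x 3' droplet kit in 6 libraries, 2 per group. The deposited files hold counts, whole UMIs per gene and cell, which the authors made with Cell Ranger (version 9.0.1 per the file headers, 8.0.0 per the submitters' processing notes, which also name Scanpy 1.9.6 and, with no role given, mm10 and GRCm39). The 10 genes and all lists were chosen with earlier results of these data known.

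Cells needed 500 UMIs, 300 genes and at most 15% mitochondrial UMIs. Scrublet's highest scores were removed at 0.8% per 1000 cells in every library, since its own thresholds marked 0% to 44.8%. This rule and the gate thresholds were set after seeing these scores. A choroid plexus cell needed 4 markers detected, a score of at least 0.3 of that of its class's top cells, and 1.5 times the score of the next class. Other classes needed 3 markers, and 36.9% of kept cells fell in a class. Raw counts were summed per library and class with at least 20 cells in every library and tested in edgeR 4.0.16 (TMM, filterByExpr, quasi-likelihood, all 6 libraries, Benjamini-Hochberg over all genes) in R 4.3.3, after tests on simulated data. DESeq2 1.42.0 was an alternative. Clusters came from scanpy 1.11.5. Named genes were the 10, per list the called genes (at most 4) or that with the smallest p, and the 5 most alike. Camp and Trpm2 are outside this rule, Camp chosen after its values were seen. Intervals cover only the counting error of the gene's UMIs in the class, with the choroid plexus ratio to Ttr taken as exact.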

Additional observations from a re-analysis of the deposited data

How the results depend on the processing

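In choroid plexus cells none of the 10 genes was called under any alternative, except Folr1 in WT bilirubin against WT vehicle when a knockout library was left out, so that leaving out 1 library gave 0 to 1 calls. The values below are log2 fold changes, and the cause of each turn was not tested.

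With the 4 libraries of each comparison alone, the log2 fold change turned sign for Igf2 (0.017) in WT bilirubin against WT vehicle. With a stricter gate, the log2 fold change turned sign for Prlr (0.036) and Igf2 (0.24) in the knockout against WT bilirubin, and for Igf2 (0.056), Clic6 (0.038) and Slc4a5 (0.12) in the knockout against WT vehicle. With a looser gate, the log2 fold change turned sign for Igf2 (0.26) in WT bilirubin against WT vehicle, and for Igf2 (0.062) in the knockout against WT vehicle. With doublet calls kept, the log2 fold change turned sign for Igf2 (0.048) in WT bilirubin against WT vehicle, and for Igf2 (0.038) in the knockout against WT bilirubin, and for Igf2 (0.086) and Slc4a5 (0.041) in the knockout against WT vehicle. With clusters in place of the gate, the log2 fold change turned sign for Igf2 (0.083) in WT bilirubin against WT vehicle, and for Prlr (0.034) and Igf2 (0.23) in the knockout against WT bilirubin, and for Igf2 (0.31), Clic6 (0.032) and Slc4a5 (0.25) in the knockout against WT vehicle. With gated cells inside the clusters only, a setting chosen after seeing the data, the log2 fold change turned sign for Prlr (0.041) and Igf2 (0.22) in the knockout against WT bilirubin, and for Igf2 (0.11), Clic6 (0.0065) and Slc4a5 (0.29) in the knockout against WT vehicle. With the 10 genes left out of the library total, the log2 fold change turned sign for Igf2 (0.027) in WT bilirubin against WT vehicle, and for Slc4a5 (0.019) in the knockout against WT vehicle. In whole libraries without choroid plexus cells, the log2 fold change turned sign for Prlr (-0.095) in WT bilirubin against WT vehicle, and for Ttr (0.71), Kl (0.33), Enpp2 (0.28), Prlr (0.28), Igf2 (0.36), Folr1 (0.75), Clic6 (0.028), Kcne2 (0.61) and Aqp1 (0.046) in the knockout against WT bilirubin.

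In choroid plexus cells, leaving out 1 library turned the sign in WT bilirubin against WT vehicle for Igf2 (-0.53 to 0.38). It did so in the knockout against WT bilirubin for Igf2 (-0.46 to 0.54), Kl (-0.85 to 0.19), Enpp2 (-1.01 to 0.077), Prlr (-0.68 to 0.22), Kcne2 (-0.40 to 0.54) and Folr1 (-0.57 to 0.023). It did so in the knockout against WT vehicle for Ttr (-0.022 to 0.46), Prlr (-0.17 to 1.06), Igf2 (-0.39 to 0.17), Clic6 (-0.36 to 0.076), Slc4a5 (-0.40 to 0.28), Aqp1 (-0.20 to 0.13), Kl (-0.14 to 0.82) and Enpp2 (-0.21 to 0.80). In whole libraries, leaving out 1 library turned the sign in WT bilirubin against WT vehicle for Prlr (-0.049 to 3.62). It did so in the knockout against WT bilirubin for Igf2 (-0.72 to 0.19) and Kcne2 (-0.56 to 0.16). It did so in the knockout against WT vehicle for Ttr (-0.24 to 2.78), Kl (-0.13 to 2.75), Prlr (-0.62 to 3.05), Igf2 (-0.31 to 1.98), Clic6 (-0.47 to 2.10), Slc4a5 (-0.49 to 2.08) and Aqp1 (-0.47 to 2.42).

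In whole libraries 2 of the 10 genes were called in WT bilirubin against WT vehicle without a filter on low counts, and leaving out 1 library gave 0 to 8 calls there and 0 to 1 in the knockout against WT vehicle, the highest without WT vehicle replicate 2. In the 7 other classes WT bilirubin against WT vehicle gave 3 calls without the filter and 0 to 5 with 1 library left out, the knockout against WT bilirubin 0 to 3, the highest of both without WT bilirubin replicate 1, and the knockout against WT vehicle 0 to 1. The log2 ratio of choroid plexus cell shares ran from 0.55 to 4.27 in WT bilirubin against WT vehicle and from -0.53 to 3.19 in the knockout against WT vehicle, lowest without WT vehicle replicate 1 and highest without WT vehicle replicate 2. Where a group keeps 1 library, that library is assumed to vary like the other groups.

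Same-numbered libraries did not deviate together in choroid plexus cells (r of 0.06, -0.25 and -0.17 between group pairs). Spread of single libraries can hide a pairing, so these r cannot exclude that the numbers pair the libraries, and the labels do not say. With the replicate number as a block the median of the 10 genes in choroid plexus cells was 0.63 in WT bilirubin against WT vehicle, -0.30 in the knockout against WT bilirubin and 0.24 in the knockout against WT vehicle. In whole libraries it was 1.49 with the block and 1.17 without it in WT bilirubin against WT vehicle, -0.40 and -0.54 in the knockout against WT bilirubin, and 1.00 and 0.50 in the knockout against WT vehicle. The block added 1 call in other classes, Folr1 in oligodendrocytes (1.67, edgeR adjusted p = 0.0346).

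Counts of all genes called in choroid plexus cells depended strongly on the setting. In WT bilirubin against WT vehicle 5 were called, against 0 with median-of-ratios factors, the block, the looser gate or doublet calls kept, 34 by DESeq2, 92 with the stricter gate, 123 with 4 libraries, 216 with gated cells inside the clusters, 235 with no filter, 354 with Scrublet's own thresholds, a setting added after seeing the data, and 376 with clusters. Leaving out 1 library gave 0 to 421. In the knockout against WT bilirubin 6 were called, with 0 to 45 under these settings and 0 to 317 with 1 library left out. In the knockout against WT vehicle 12 were called, with 1 to 52 and 0 to 141. In whole libraries 1, 1 and 0 were called in WT bilirubin against WT vehicle, the knockout against WT bilirubin and the knockout against WT vehicle, and 661, 182 and 347 without the filter. With 2 libraries a group and 187 choroid plexus cells in WT vehicle replicate 1, small differences were not detectable.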
